A study of Mus musculus with 8 samples.

Results

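The 9 genes described here encode the oxygen-sensing pathway around the hypoxia-inducible factors: Hif1a, Epas1, Arnt, Hif1an, Egln1, Egln2, Egln3, Vhl and Vegfa. Their N6-methyladenosine (m6A) peaks were taken from MeRIP-seq of mouse embryonic fibroblasts (MEFs) as every entry whose deposited gene name is a member. This gave 33 of the 38705 peaks in the lists of 4 immunoprecipitated (IP) libraries, and peaks of different libraries that overlapped by at least 1 bp were joined into 19 of 21168 regions. All 9 genes were among the 9779 genes with a peak in at least 1 library.

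The cells were wild type C57BL/6 MEFs, taken from 13.5-day embryos and used at passages 5 to 6. The control group was untreated, and the starved group was kept in nutrient-deprived medium for 2 h. Each group had 2 IP and 2 input libraries, 8 samples in all, and the labels name no change of oxygen in either group. The labels do not say whether the replicates came from separate cultures. The input libraries entered only through the peak calling, so RNA levels are not known here, and a transcript that carries less m6A cannot be told apart from a transcript too scarce for a peak to be called.

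In well-oxygenated cells, the prolyl hydroxylases Egln1, Egln2 and Egln3 (also called PHD2, PHD1 and PHD3) mark the alpha subunits Hif1a and Epas1 (HIF-2 alpha) with hydroxyl groups. The Vhl ubiquitin ligase recognises the marked subunits and sends them for degradation, while Hif1an (FIH) hydroxylates an asparagine that otherwise lets them recruit coactivators. When oxygen falls, the alpha subunits are spared, pair with Arnt (HIF-1 beta) and switch on targets such as Vegfa, the main growth factor for blood vessels, and Egln3. m6A is an internal methyl mark of mRNA that is found most often near stop codons and in 3′ untranslated regions (UTRs), and it bears on the stability and translation of the transcripts that carry it.

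The sequences below show the m6A core motif, GGAC, inside the regions called in at least 2 libraries, together with Epas1, whose only peak had a high fold enrichment. Each line holds the 20 bases, 5′ to 3′ on the mRNA strand, around the GGAC nearest the middle of the stretch that the peaks share, with the motif in capitals and coordinates on GRCm38 (mm10). Vegfa region 4 was also called in several libraries but holds no GGAC in its shared stretch.
Vegfa exon 1, minus strand, chr17:46031363-46031382: ccggccccGGACgggcctcc
Vegfa exon 7, minus strand, chr17:46018385-46018404: actgctgtGGACttgtgttg
Vhl exon 3, plus strand, chr6:113629501-113629520: gtgcggaaGGACatacagcg
Egln1 exon 1, minus strand, chr8:124948354-124948373: atccggggGGACcagatcac
Egln1 exon 5, minus strand, chr8:124910445-124910464: ttccatctGGACacgaaaca
Egln2 exon 6, minus strand, chr7:27158745-27158764: cagtgtatGGACtgggctgc
Egln3 exon 5, minus strand, chr12:54180337-54180356: tgagcccaGGACtgcttctt
Epas1 exon 16, plus strand, chr17:86831079-86831098: agagctctGGACcaggccac

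The base after the printed motif was T in Egln2, Egln3 and Vegfa exon 7, A in Vhl and Egln1 exon 5, and C in Egln1 exon 1 and Epas1. In Vegfa exon 1 it was G, which the DRACH consensus for m6A does not allow. The shared stretch there held 2 GGAC, and the wider peaks of control IP replicate 2 and starved IP replicate 1 held a GGACT. The Vhl peaks and most Egln1 exon 5 peaks also held GGACT, so the printed motif does not describe a whole region. GGAC stood in 26 of the 33 peaks, and GGACT in 15. In 200 bp at the centre of each region, 12 of the 19 regions held GGAC (63.16%, 95% Wilson interval 41.04 to 80.85%), against 62.1% of the 19915 regions of all genes that could be placed on a transcript. For GGACT, whose matches all lie within GGAC matches, the shares were 26.32% and 25.6%. The transcribed strand alone was searched, and a match marks a word in the window, not a methylated base.

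Fold enrichment, the deposited ratio of IP signal over the local input background, was modest for these genes. The 33 peaks ranged from 2.57 to 74.67-fold with a median of 7.07-fold, and 8 of them lay above the median of their own library. The library medians over all genes were 12.21 and 12.27-fold in the control libraries and 14.58 and 14.69-fold in the starved libraries. The median peak of the 9 genes ranked above 26.57% of the peaks of its library. The deposited score is minus 10 times log10 of the p-value and stops at 3100, which 3 of the 33 peaks reached, and the lowest score was 64.92. All 3 were in starved IP replicate 1, where 28.54% of the peaks of all genes reached the limit. The shares were 27.76% in starved IP replicate 2 and 16.99 and 13.23% in the control libraries. The deposited false discovery rate of the 33 peaks ran from 10.11% to 77.75%, so none of them is called at a rate of 5%. That limit is not particular to these genes. Over all genes, rates began at 5.88% for control IP replicate 1 and 8.85% for control IP replicate 2. They began at 5.56% for starved IP replicate 1 and 7.51% for starved IP replicate 2.

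Control IP replicate 1 held 10 peaks of these genes and control IP replicate 2 held 9. Starved IP replicate 1 held 9 peaks and starved IP replicate 2 held 5. The control mean was 9.5 ± 0.707 and the starved mean 7.0 ± 2.83 (SD, n = 2 each), a difference of -2.5 peaks that was smaller than the SD of the starved libraries. Without starved IP replicate 2 the difference was -0.5. That library also held the shortest list, with 8974 peaks against 9757 to 10103 in the other libraries, and its members made up 0.0557% of it against 0.0912 to 0.0990% elsewhere.

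The 4 highest folds, in Egln3, Epas1, Vegfa and Egln2, all came from starved IP replicate 1. In starved IP replicate 2, none of the 5 peaks exceeded the library median. High values in starved cells therefore rest on 1 library in each of these genes.

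**Figure D1:**
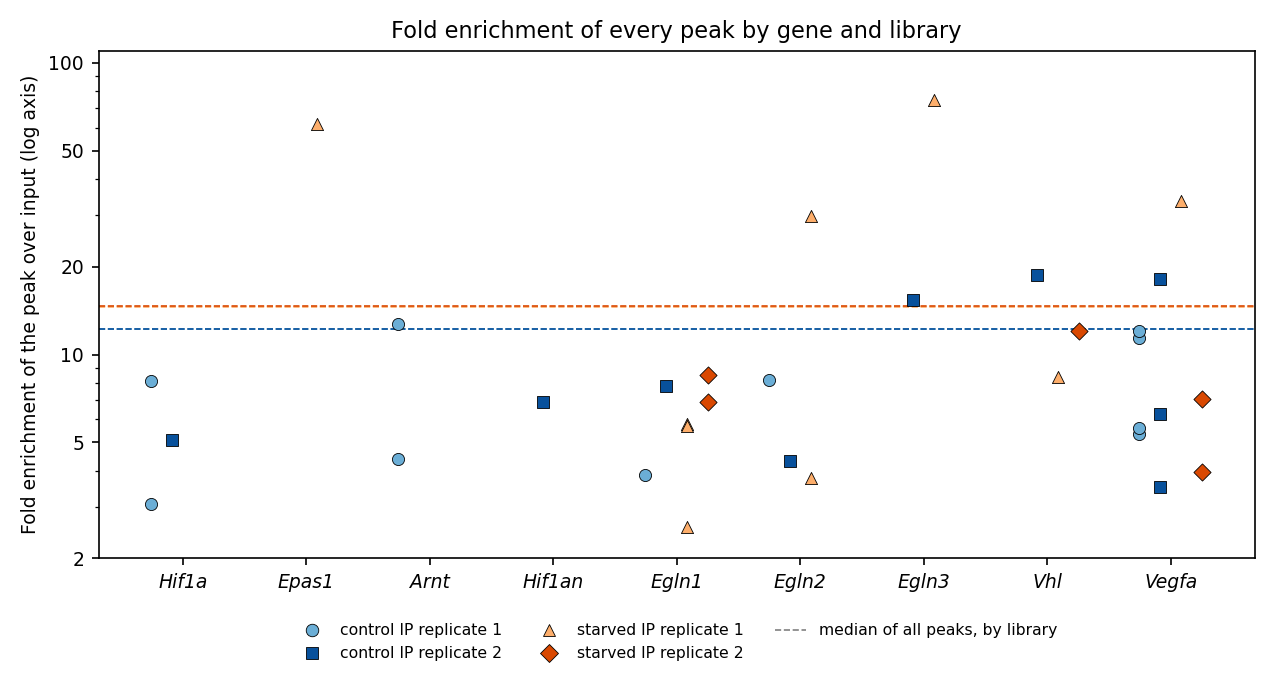
Fold enrichment over input (log axis) of each of the 33 peaks, by gene, with a point for every peak, the IP library given by shape and colour, and the median of all peaks of each library as a dashed line. The 4 points above 20-fold all belong to starved IP replicate 1, and most other points lie under the dashed lines.

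Of the transcription factor subunits, Hif1a and Arnt had peaks in control libraries only and Epas1 in a starved library only. None of their peaks was called in both replicates of a group. Among all genes with a peak, 19.3% had peaks in control libraries only and 16.4% in starved libraries only, so such patterns are common in these lists.

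Hif1a (gene ID 15251, chr12:73907904-73947530, plus strand, 15 exons) encodes the oxygen-labile subunit of HIF-1 and had 3 peaks, each in its own place. In control IP replicate 1 a peak of 8.09-fold (score 718.85) filled exon 12 exactly, at chr12:73941961-73942385, within the coding sequence. The same library had a peak of 3.08-fold (score 269.19) in the 3′ UTR in exon 15, at chr12:73945741-73946049. Both lay in the lower part of that library, above 34.5% and 2.60% of its peaks. Control IP replicate 2 had neither, and its only Hif1a peak, of 5.10-fold (score 121.12), lay further along the 3′ UTR at chr12:73947037-73947397. The centres of the 3′ UTR peaks were 192 and 1514 nt past the end of the stop codon. The control replicates thus shared no Hif1a peak, and no peak was called in either starved library.

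Epas1 (gene ID 13819, chr17:86753700-86833410, plus strand, 16 exons), the alpha subunit of HIF-2, had a single peak. It was called in starved IP replicate 1 at chr17:86830951-86831155, with 61.62-fold enrichment and a score of 1641.39, above 88.95% of the peaks of that library. It began at the start of exon 16 and spanned the stop codon, with 152 bases of coding sequence and 53 bases of 3′ UTR. No Epas1 peak was called in the other starved library or in either control library, so this value has no replicate.

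Arnt (gene ID 11863, chr3:95434390-95497240, plus strand, 21 exons), the stable partner of both alpha subunits, had 2 peaks, both in control IP replicate 1. A coding peak in exon 5 at chr3:95470177-95470388 had 12.74-fold enrichment (score 472.71), just above the library median. A peak in the 3′ UTR in exon 21 at chr3:95495640-95495993 had 4.40-fold enrichment (score 194.43). The other control library and both starved libraries held no Arnt peak.

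The hydroxylases held 14 of the 33 peaks, and the 3 Egln genes each had a region centred in the 3′ UTR that was called in control and starved cells. The peak centres there lay 152 to 950 nt past the end of the stop codon. Only starved peaks covered the stop codon in Egln1 and Egln2, and only the control peak did in Egln3. None of the hydroxylase regions was called in all 4 libraries, so no region had a value in both replicates of both groups.

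Egln1 (gene ID 112405, chr8:124908587-124949324, minus strand, 5 exons) encodes the prolyl hydroxylase that sets HIF-1 alpha levels in most normoxic cells. It was one of 2 members, with Vegfa, that had a peak in all 4 libraries, as had 29.2% of genes with any peak. In the coding part of exon 1, control IP replicate 1 had a peak of 3.87-fold (score 71.42) at chr8:124948233-124948491. Starved IP replicate 1 had a peak from the same start to 124948557, of 5.76-fold (score 210.66). Their shared start, at the lower coordinate, lay exactly on the exon edge, and the other replicate of each group had none there.

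The region of Egln1 exon 5 was called in 3 libraries. Control IP replicate 2 had a broad peak of 7.82-fold (score 602.73) at chr8:124909614-124910692, in the 3′ UTR. Starved IP replicate 2 had a peak of 8.52-fold (score 885.25) at chr8:124910273-124910725, which covered the stop codon. Starved IP replicate 1 divided the same stretch into a peak of 2.57-fold (score 95.77) at chr8:124910165-124910720 and a peak of 5.68-fold (score 331.81) at chr8:124909533-124909984. Of these, the former also covered the stop codon, and its 2.57-fold was the lowest fold of all 33 peaks. The control value lay between those of the starved libraries. Starved IP replicate 2 had a further 3′ UTR peak of 6.90-fold (score 698.75) at chr8:124908952-124909286, which no other library held.

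Egln2 (gene ID 112406, chr7:27158658-27166802, minus strand, 6 exons) encodes the mainly nuclear prolyl hydroxylase. Near its 3′ end, in exon 6, control IP replicate 1 had a peak of 8.17-fold (score 672.79) at chr7:27158658-27158946. Starved IP replicate 1 had a peak of 29.79-fold at chr7:27158658-27159182 with a score at the limit of 3100, and it reached back over the stop codon. Within its library it ranked above 73.5% of peaks, against 34.8% for the control peak. The second replicate of each group had no peak there, and 11 bp of the region also lie in an exon of Cyp2t4 on the opposite strand, so part of the signal is uncertain. In the coding part of exon 2, starved IP replicate 1 had a peak of 3.79-fold (score 142.41) at chr7:27165108-27165470. Control IP replicate 2 had a peak of 4.31-fold (score 98.11) at chr7:27164650-27165105, which stopped just short of it. Starved IP replicate 2 held no Egln2 peak.

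Egln3 (gene ID 112407, chr12:54178981-54203860, minus strand, 5 exons), a prolyl hydroxylase that is itself a hypoxia target, had the highest fold of the 9 genes. In starved IP replicate 1 a 3′ UTR peak at chr12:54180177-54180527 had 74.67-fold enrichment and a score at the limit of 3100, above 91.8% of the peaks of that library. In control IP replicate 2 an overlapping peak at chr12:54180289-54180655 had 15.40-fold enrichment (score 392.51), above 58.0% of its library, and covered the stop codon. No Egln3 peak was called in the second starved or the other control library. The pair of values therefore has no replicate in either group, and no test of the difference could be made.

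Hif1an (gene ID 319594, chr19:44562850-44576274, plus strand, 8 exons), the asparaginyl hydroxylase, had 1 peak. It lay in the 3′ UTR in exon 8 at chr19:44571959-44572595 in control IP replicate 2, with 6.86-fold enrichment (score 348.49). No other library had a peak in this gene.

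Vhl (gene ID 22346, chr6:113623959-113631633, plus strand, 3 exons), the substrate recognition subunit of the ubiquitin ligase, had the stop codon peak with the most libraries. Control IP replicate 2 had a peak of 18.77-fold (score 885.64) at chr6:113629385-113629661. Starved IP replicate 1 had a peak from the same start to 113630547, of 8.37-fold (score 305.32). Starved IP replicate 2 had a peak from the same start to 113629669, of 12.04-fold (score 573.66). All 3 began at the start of exon 3 and covered the stop codon, and the printed GGAC of Vhl lies at -60 nt from the end of the stop codon. The only control value lay above both starved values. Control IP replicate 1 had no Vhl peak, so the control group has 1 value here and the difference could not be tested.

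**Figure D2:**
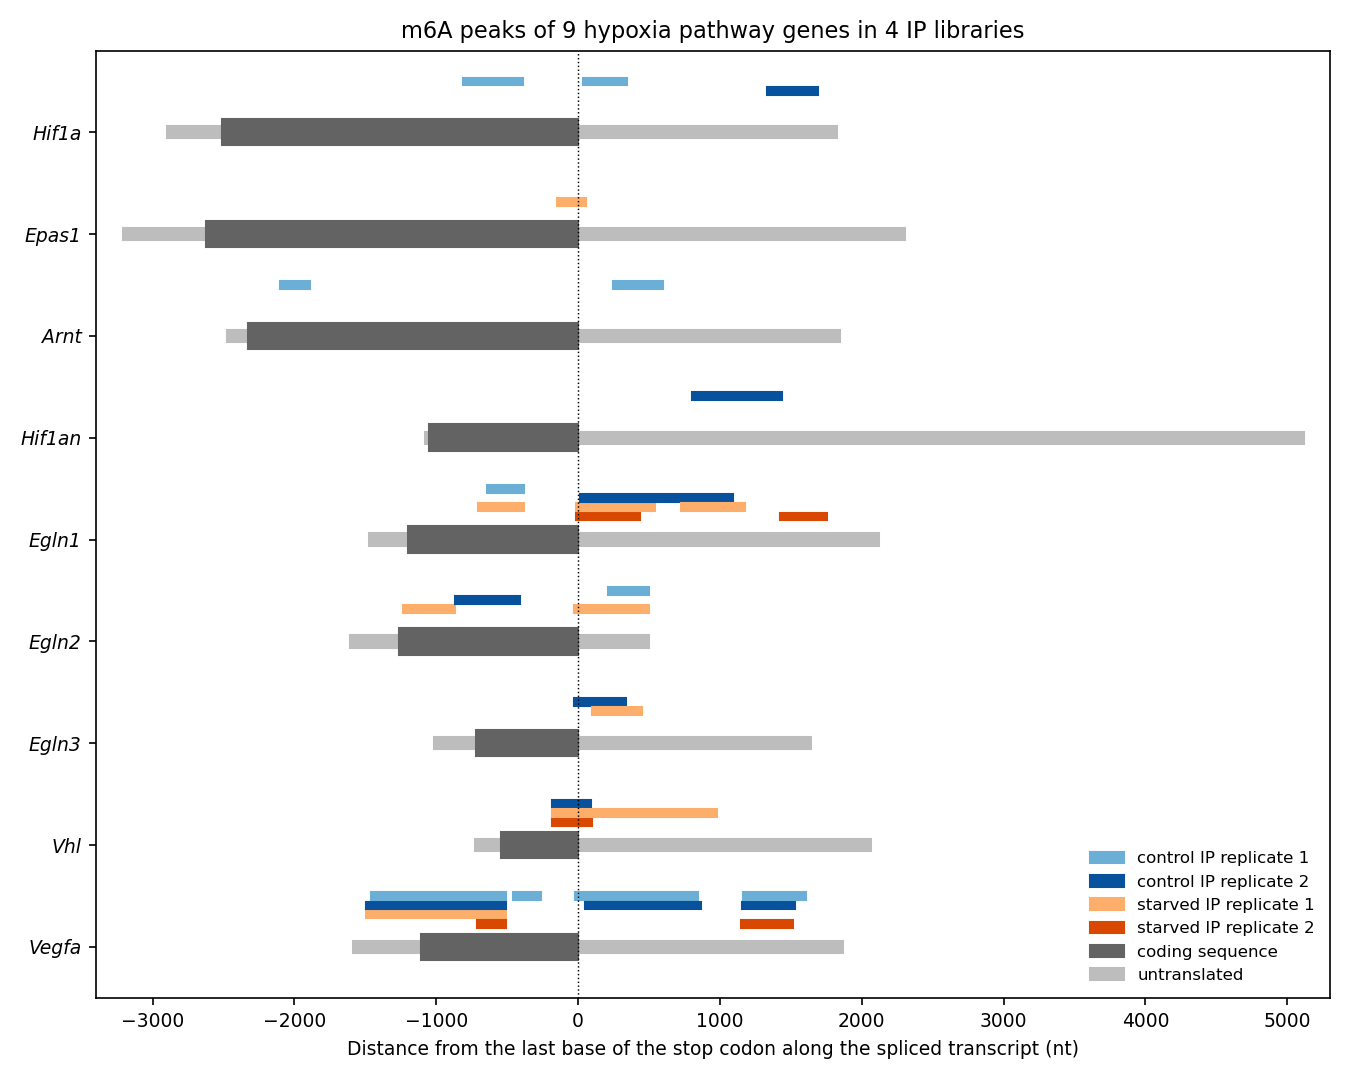
Peaks of the 9 genes drawn along the spliced transcript, with the distance from the last base of the stop codon in nt on the horizontal axis, the coding sequence as a dark bar, the UTRs as light bars and the peaks of the 4 IP libraries in colour above. The 3 Vhl peaks and the Epas1 peak lie across the stop codon, while the Hif1a peaks of the control libraries lie apart from each other.

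Vegfa (gene ID 22339, chr17:46016993-46032369, minus strand, 7 exons in the transcript the lists name) had 10 peaks in 4 regions, the most of the 9 genes. Its exon 1 held the only region of the 9 genes that was called in all 4 libraries, against 10.7% of regions of all genes. All 4 peaks there started at position 46031291, the edge of the exon. Control IP replicate 1 had 5.34-fold enrichment (score 64.92, to position 46032245), and control IP replicate 2 had 18.13-fold (score 2031.36, to position 46032277). Starved IP replicate 1 had 33.61-fold (score 3100, to position 46032280), and starved IP replicate 2 had 7.07-fold (score 273.68, to position 46031493). Each group thus had a low and a high replicate, and the groups overlapped. The peak of starved IP replicate 2 was the shortest of the 33, at 203 bp, while the others spanned nearly the whole exon.

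On the log2 scale the fold enrichment of Vegfa exon 1 was 3.30 ± 1.25 in control and 3.95 ± 1.59 in starved cells (SD, n = 2 each). The difference of 0.65 was smaller than either SD (two-sided exact permutation p = 0.667). With 2 libraries against 2 the smallest p is 0.333, so no comparison of this kind could reach 0.05. The sign rested on single libraries, since the difference was -0.23 without control IP replicate 1 and -0.48 without starved IP replicate 1. Dividing each value by the median of its library, which lowers starved against control by 0.26, gave 0.39. Over the 2257 regions of all genes called in all 4 libraries the median difference was 0.10, the median SDs were 0.496 in control and 0.597 in starved cells, and 52.55% of the regions differed by more than Vegfa exon 1 in either direction. Both starved values lay above both control values in 22.9% of those regions and below them in 18.0%, and Vegfa exon 1 was in neither set. That balance turned after division by library medians, to 16.93% above and 25.08% below. Those medians are over all peaks of a library, and their shift of 0.26 exceeds the median difference of 0.10 in these regions. The balance therefore depends on the scaling chosen.

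**Figure D3:**
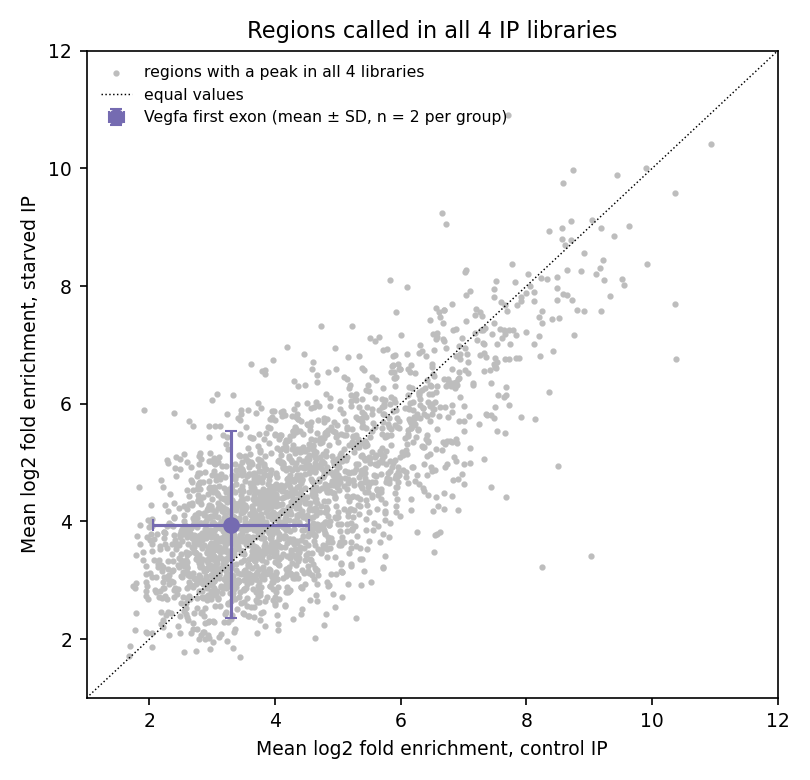
Mean log2 fold enrichment in the starved IP libraries against the control IP libraries for the 2257 regions called in all 4 (grey points), with Vegfa exon 1 and its SD in both directions (n = 2 per group) and the line of equal values. The Vegfa point, at 3.30 and 3.95, lies inside the cloud and its error bars cross the line.

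Whether this region counts as coding depends on the transcript. Translation of the transcript named in the lists begins at a CTG at position 46031890, which puts the middle of the peak in coding sequence. Other Vegfa transcripts in GENCODE begin at an ATG at position 46031356, which leaves the middle in the 5′ UTR. The printed GGAC of exon 1 lies just upstream of that ATG. Among the regions of other genes whose values over the 4 libraries were nearest to it, by Euclidean distance of log2 fold enrichment, were those in Dip2c (0.53) and Evi5 (0.56). In Dip2c, for instance, control cells had 6.40 and 16.17-fold and starved cells 25.34 and 6.40-fold.

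Vegfa exon 7 held the only region of the 9 genes that was called in both control libraries and neither starved library, against 4.15% of all regions. Control IP replicate 1 had a peak of 12.07-fold (score 2791.27) at chr17:46018010-46018879, which covered the stop codon. Control IP replicate 2 had a peak of 6.24-fold (score 154.85) at chr17:46017992-46018807, in the 3′ UTR. Its printed GGAC is followed by T and lies 462 nt past the end of the stop codon. No region of the 9 genes was called in both starved libraries and neither control library, against 3.20% of all regions.

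Further along the Vegfa 3′ UTR, 3 libraries had a weak peak. It had 5.61-fold enrichment (score 309.50) in control IP replicate 1 at chr17:46017252-46017693. In control IP replicate 2 it had 3.52-fold (score 88.98) at chr17:46017331-46017702, and in starved IP replicate 2 it had 3.96-fold (score 76.81) at chr17:46017340-46017711. The starved value lay between the control values. A coding peak of 11.38-fold (score 536.41) in exon 3 at chr17:46025312-46025543 was called in control IP replicate 1 only. It was placed on the transcript of the other Vegfa peaks, which holds 197 of its 232 bp.

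By position, 14 of the 33 peaks had their centre in coding sequence, 19 in the 3′ UTR and 0 in the 5′ UTR of the transcripts used, and 9 covered the stop codon. Of these 9, 3 were in Vhl, 2 in Egln1 and the remaining 4 in Epas1, Egln2, Egln3 and Vegfa. The centres of 3 of the 33 peaks lay within 100 nt of the end of the stop codon. No share over all peaks stands beside these positions, so a difference from other genes cannot be read from them. In 17 of the 33 peaks a start or an end lay exactly on an annotated exon edge, as in 48.17% of all peaks, so where a peak stops at an exon edge, as in Vhl and Vegfa exon 1, the list does not show how far the signal ran.

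Most regions of these genes were seen in a single library. Of the 19 regions, 11 were called in 1 library, against 56.2% of all regions, 4 in 2 libraries (21.0%), 3 in 3 libraries (12.2%) and 1 in all 4. Regions called in control libraries only numbered 9 (33.6% of all regions), in starved libraries only 3 (29.9%), and in both groups 7. These counts move with the length of the lists, and the members were too few for a difference from the background to be read.

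**Figure D4:**
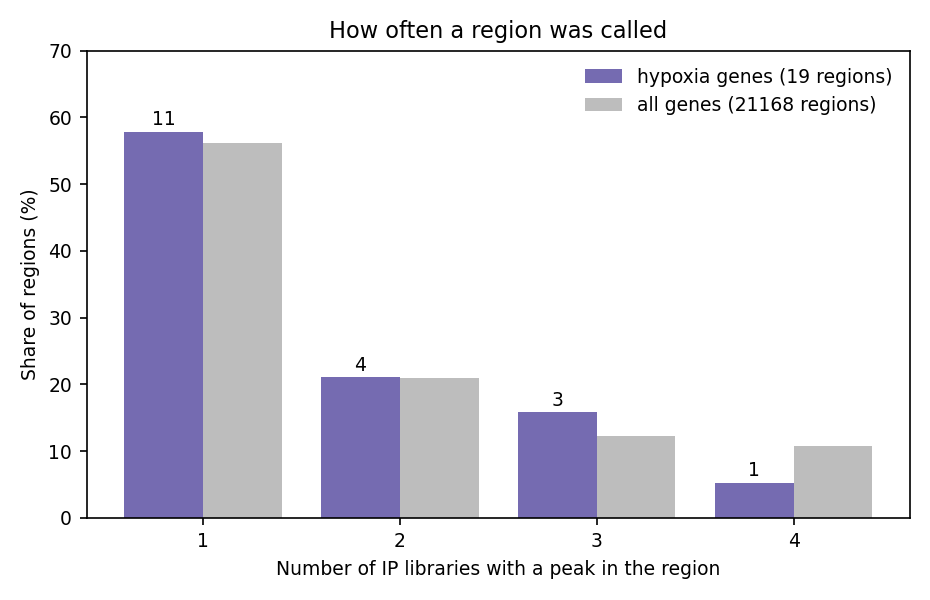
Share of regions (%) by the number of IP libraries with a peak, for the 19 regions of the 9 genes (the bars carry their counts) and for all 21168 regions. The largest class in both is regions called in 1 library, with 11 of 19 regions and 56.2% of all regions.

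The wider pathway was read from a list of 50 further genes that act on the factors or are known targets. Of these, 40 had a peak, 13 in all 4 libraries (29.2% of all genes with a peak), 8 in control libraries only (19.3%) and 7 in starved libraries only (16.4%), which is near the background. Their 162 peaks had a median fold of 9.98, and 68 lay in the upper part of their library, above its median. Among 14 regions called in all 4 libraries, both starved values lay above both control values in 4 (22.9% of all such regions) and below them in 2 (18.0%), and each had the smallest p of 0.333 in the two-sided exact permutation test. After division by library medians the counts were 3 above and 3 below, so they depend on the scaling and no direction can be read from them. Of its 86 regions, 2 were called in both starved libraries and neither control library, against 3.20% of all regions. The reverse held for 1, against 4.15%, so the regions named below are no excess over the background.

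Hexokinase 2 (Hk2), which starts glycolysis, had 2 of the 4 higher regions. At chr6:82725025-82726797 control cells had 10.06 and 9.89-fold and starved cells 22.12 and 26.61-fold, a log2 difference of 1.28. At chr6:82726970-82727454 they were 5.65 and 2.94 against 7.77 and 48.44, a difference of 2.25 that was carried mostly by starved IP replicate 2. A further Hk2 region, chr6:82738320-82738520, was called in both starved libraries only, with 60.81 and 21.98-fold.

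The VEGF receptor gene Flt1 had 24.36 and 14.81-fold in control and 29.97 and 35.89-fold in starved cells at chr5:147638982-147639533. Crebbp, a coactivator of the factors, had 4.97 and 4.44-fold against 5.81 and 29.98-fold at chr16:4084645-4085047, but its groups overlapped once values were divided by library medians. Ep300, the related coactivator, had a region called in both starved libraries only, at chr15:81643027-81643232, with 38.50 and 5.24-fold.

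The lower regions were in Vegfb and Ndrg1. Vegfb, a relative of Vegfa, had 657.12 and 513.73-fold in control and 159.63 and 225.92-fold in starved cells at chr19:6982472-6982793, a log2 difference of -1.61. Ndrg1, a stress-response gene, had 30.78 and 84.14-fold against 18.61 and 8.5-fold at chr15:66929318-66930382, a stretch that also overlaps an exon of Gm17035. Siah2, a ubiquitin ligase for the prolyl hydroxylases, had the only region of the list called in both control libraries and neither starved library, at chr3:58675847-58676198, with 2.75 and 10.06-fold. The 10 genes without a peak included the targets Ldha, Pgk1, Aldoa and Car9.

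The label of the cells could be checked only by the presence of peaks. Of 10 fibroblast markers, 6 had a peak, and Col1a1, Dcn, Lum and Vim had none. Peaks were also called in 2 of 4 endothelial, 1 of 3 blood and 2 of 4 epithelial markers. A gene without a peak may still be expressed, so these counts neither define nor exclude a cell type.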

How the data were processed

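MeRIP-seq IP and input libraries of MEFs were grouped by treatment as the labels give it. Per the submitters' processing notes, the authors aligned reads to mm10 with HISAT2 2.0.4 and called peaks with MACS2, and per the study's methods each IP library was set against its input and peaks on mRNA exons were kept. The column names of the lists belong to an earlier series of MACS versions, so the caller version is uncertain. The deposited fold enrichment is a ratio over local input background, the deposited score is minus 10 times log10 of the p-value, and the authors give the false discovery rate as a percent. No value was rescaled, except in a named alternative. The deposited table of differential sites holds the authors' own fold changes and p-values and was not used. The lists give no reads, so the depth is unknown and no counting interval of a fold could be made; a deeper library yields more peaks at the same fold. The number of unmapped columns was 0.

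Peak starts were counted from 1. Positions along the mRNA used the transcript named in the lists, from GENCODE M21, and sequences came from the RefSeq GRCm38.p6 assembly, the build of mm10. The Vegfa exon 3 peak was an exception: its named transcript could not be used, so that of the other Vegfa peaks was taken. Where a library had several peaks in a region, the highest fold was used. Differences of mean log2 fold enrichment were tested by two-sided exact permutation over the libraries, with no pairing. All 9 members are reported with every peak. Of the 50 pathway genes, those with a region in both libraries of a group only, or with groups that do not overlap, are named, as are the 3 regions nearest to Vegfa exon 1, except 1 that is not reported here. The members and lists were chosen with earlier results of these data known. Scripts used Python 3.11.15, numpy 2.4.6, pandas 2.3.3, scipy 1.17.1, matplotlib 3.10.9 and samtools 1.23.1, and 5 of 5 quantities were recovered from 3000 simulated regions. Alternatives were a minimum of 4-fold, a score of at least 100, equal list lengths, another overlap rule, the mean of peaks in a region, scaling by library medians, other motif settings and leaving out each library.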

Additional observations from a re-analysis of the deposited data

How the results depend on the processing

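The number of member regions called in all 4 libraries fell from 1 to 0 with a score of at least 100 and to 0 with equal list lengths of 8974 peaks, since the Vegfa exon 1 peak of control IP replicate 1, at a score of 64.92, was then lost, and no difference could be computed for it. Leaving out a library asks for agreement of fewer libraries. It gave 1 to 3 such regions (3 without control IP replicate 1 and 2 without starved IP replicate 1), 0 to 2 regions called in the starved libraries only in place of 0 (2 without control IP replicate 2 or starved IP replicate 2), and 1 to 6 called in the control libraries only in place of 1 (4 and 6 without control IP replicate 1 or 2). The difference in member peaks was -4.5 to -0.5 when a library was left out, -1.5 with a score of at least 100 and -1.0 with equal list lengths. The Vegfa exon 1 difference of 0.65 ran from -0.48 to 1.77 when a library was left out, and it reversed to -0.23 without control IP replicate 1 and to -0.48 without starved IP replicate 1. The median over all member regions then called in every remaining library ran from -0.32 to 1.77. The share of all regions with both starved values above both control values was 16.93% after division by library medians, with 25.08% below, and 36.66 to 40.05% when a library was left out. Among the pathway regions that division gave 3 above and 3 below. When a library was left out, every starved value lay above every control value in 36.66 to 40.05% of regions. One group then has a single value, so this is met more easily and cannot be set beside the other shares. The motif share was 26.32% for GGACT and 52.63% for GGAC in 100 bp, where 40.2% of all regions held it. The differences between replicates of the control and starved groups correlated at r = -0.0173 over 2257 regions. With 2 pairs this cannot show whether the replicate numbers pair the libraries. With the replicate number as a block the Vegfa difference stayed 0.65 (exact p = 1, smallest possible 0.5). The difference in peaks stayed -2.5. Such a block cannot move a mean difference when both groups hold the same replicate numbers, so these differences were fixed in advance. At a smallest possible p of 0.5 no call could be made or lost, so the block tests nothing here. Depth limits which peaks can be called and is unknown here.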
